A study of Triticum aestivum with 9 samples.

Results

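Among 61115 probe sets that read wheat transcripts, 231 kept nearly the same signal between 11 and 15 days after flowering and were then at least 2-fold higher at 20 days. They were chosen by their measured values alone. A probe set was kept where its mean log2 signal moved by less than 0.5 in either direction from the first phase to the second, was higher by 1 or more on the log2 scale at the third phase, showed no overlap between the 3 arrays of each of the later phases, and had a mean signal of 500 or more at the third. They make up 0.378% of the probe sets. Because these values chose the group, its levels and steps are given as a description, and model calls on them are printed only beside the share over all probe sets.

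The study followed the bread wheat cultivar Jimai 20, grown at a field station. Whole grains were collected at 11 (P1), 15 (P2) and 20 (P3) days post-anthesis, that is, days after flowering. The 3 phases share the cultivar, the field and its ordinary management, and no group received a treatment. Each phase has 3 biological replicates from plots, hybridised to 9 Affymetrix wheat GeneChips, on which a probe set of short oligonucleotides reads each transcript. A plot is many plants pooled, and each grain holds endosperm, embryo and seed coats together. In such bulk tissue, fewer cells of a type and less RNA per cell cannot be told apart.

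In the wheat grain the starchy endosperm stores starch and the gluten proteins, the gliadins and glutenins. The embryo and the aleurone layer around the endosperm prepare for drying during the later part of filling, largely under the control of abscisic acid, and make late embryogenesis abundant proteins and other protective proteins. The green pericarp outside photosynthesises early and loses its chlorophyll as the grain matures. A transcript that holds its level in mid filling and then increases can belong to any of these tissues, and a whole-grain array does not say which.

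The deposited values are linear MAS5 signals, with a trimmed mean of 500.1 on each array. Endosperm markers were bright at every phase, with a mean signal of 59250, 71246 and 66060 at P1, P2 and P3 for a gli-2 gliadin probe set (Ta.24114.1.S1_x_at). The embryo marker EM, a late embryogenesis gene, read 40.1, 2013 and 42337, and the photosystem gene PsbO of green tissue read 8286, 4567 and 1703. None of these 3 probe sets was in the late-gain group, though another gli-2 probe set, described below, was. The part of changing tissue proportions in the late gain was not tested. The P2 arrays stood apart in the poly-A spike-ins, RNA added before labelling, whose log2 level relative to the mean of all arrays was -0.23 for P1, 0.61 for P2 and -0.39 for P3. The 3′ to 5′ signal ratio of these spike-ins was also lower at P2, 1.44 ± 0.15 (SD, n = 3, log2) against 2.20 ± 0.11 at P1 and 2.14 ± 0.02 at P3. All 3 P2 arrays enter both steps, so neither step could be computed without them. The difference between the P3 and P1 means uses none of their signals. The P2 arrays still helped to choose the 231, and they enter the spread behind the model calls of P3 against P1. The part of the P2 arrays in the results was not tested. When signals were scaled to the spike-ins instead, 1532 probe sets met the rule, of which 33 were among the 231.

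Signals of the 231 probe sets were level across the first 6 arrays and higher on the last 3. Their median signal was 532, 512 and 540 on the P1 arrays, 508, 496 and 520 on the P2 arrays, and 1267, 1292 and 1203 on the P3 arrays. No array of P1 or P2 had a median near those of P3. The step from P2 to P3 ran from 1.0008 to 3.52 on the log2 scale, with a median of 1.22 and quartiles of 1.08 and 1.45. In linear terms the median probe set was 2.33-fold higher at P3 than at P2. Most changes were near the lowest the rule admits. Of the 231, 140 were under 2.5-fold, 46 were between 2.5- and 3-fold, 31 were between 3- and 4-fold, and 14 were 4-fold or more.

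**Figure D1:**
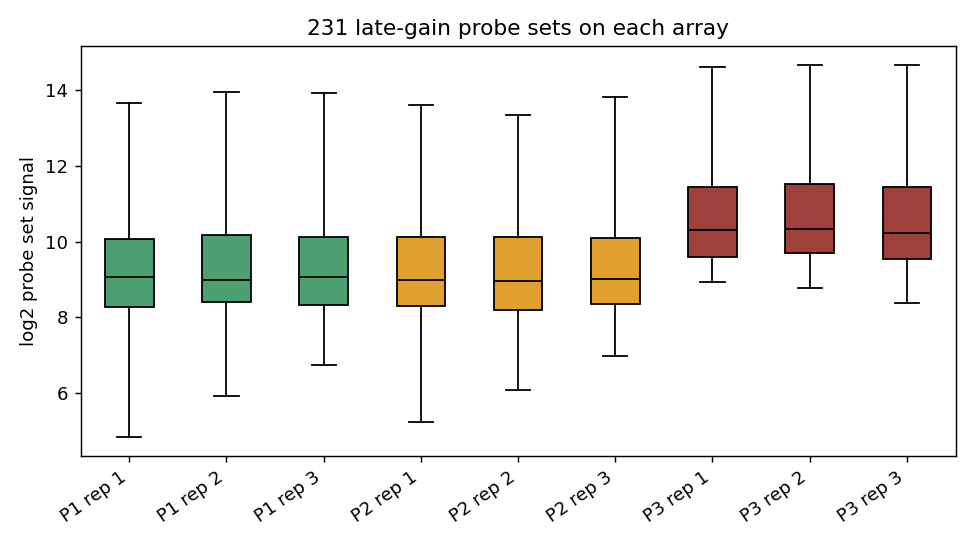
Log2 signal of the 231 late-gain probe sets on each of the 9 arrays (3 replicates of P1, P2 and P3). Boxes span the quartiles, the line is the median and whiskers reach the lowest and highest probe set. The medians are 496 to 540 in linear signal on the P1 and P2 arrays and 1203 to 1292 on the P3 arrays.

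The rule kept the first step small. From P1 to P2, 101 probe sets drifted up and 130 drifted down, with a median of -0.03 on the log2 scale, and 51 stayed within 0.1. The 3 P2 arrays all lay above the 3 P1 arrays for 42 probe sets and all below for 33, or 75 of 231 together. Over all 13478 probe sets with a mean P3 signal of 500 or more, such a separation in either direction was seen for 66.1%, and the window on the first step itself holds the share of the 231 down. For the other 156 the arrays of P1 and P2 overlapped. Of the probe sets that drifted up, the median difference between P3 and P1 was 1.51 on the log2 scale, and of those that drifted down it was 0.98. The P3 arrays all lay above the P1 arrays for 229 of the 231, against 38.3% of all probe sets as bright. The limits on the 2 steps place the P3 mean of each member above its P1 mean, here by at least 0.56 on the log2 scale. The count of 229 was thus largely set by the choice. Of the 231, 70 were less than 1 above P1 on the log2 scale.

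The gap between the P3 and P2 arrays is given as a description, since the rule required them to be apart. The rule asked for the 3 P3 arrays to lie above the 3 P2 arrays, which 34.5% of all probe sets with a mean P3 signal of 500 or more did. The lowest P3 array exceeded the highest P2 array by a median ratio of 1.88, and by 1.5 or more for 201 of the 231. No like share over all probe sets is given for these ratios. The median SD of log2 signal within a phase, pooled over the phases, was 0.19, and it was 0.5 or more for 11 probe sets. In the linear model fitted to all 36669 probe sets bright enough to test, all 231 were tested. The model called 230 higher at P3 than at P2 (adjusted p under 0.05 and at least 2-fold), where 4.46% of all tested probe sets were called. It called 160 higher at P3 than at P1, where 8.36% were called. Between P1 and P2 it called 0 changed, where 12.7% were called. That 0 was fixed in advance, because a call needs 2-fold and the window ends at 0.5 on the log2 scale. These counts rest on the values that chose the group and are read no further. The exception, TaAffx.44283.1.A1_at, read 395, 60.6 and 377 at P1, 165, 210 and 252 at P2, then 660, 473 and 544 at P3. Its second P1 array was far below the other two.

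Of all probe sets with a gain of this size and level at P3, 32.7% had a flat start under the window of 0.5. Without the condition on the first step, 706 probe sets met the other conditions. Of these, 231 started flat, 230 had already gained 1 or more on the log2 scale and 65 had gained between 0.5 and 1. A further 83 had first lost between 0.5 and 1, and 97 had lost 1 or more. Of all 61115 probe sets, at any signal, 28846 moved by less than 0.5 from P1 to P2. P2 enters both steps, so scatter at P2 moves the 2 steps in opposite directions. The part of that scatter in the split was not tested. The interval between the later phases was 5 days and the earlier interval 4 days. Per day, the median step of the 231 was 0.24 on the log2 scale after P2 and -0.01 before it.

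**Figure D2:**
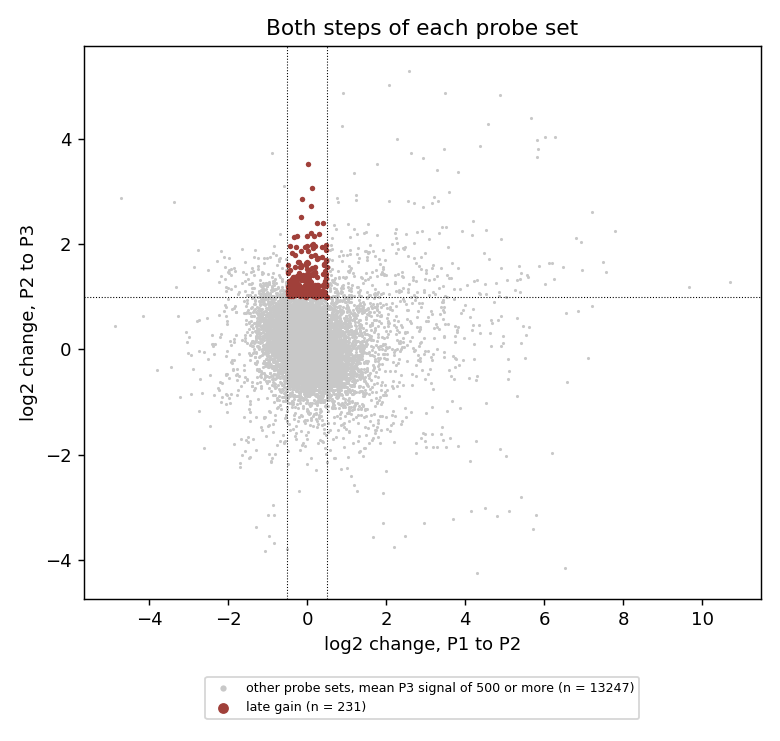
Log2 change from P1 to P2 (horizontal) and from P2 to P3 (vertical), each point 1 probe set with a mean P3 signal of 500 or more. Red points are the 231 late-gain probe sets, grey points the other 13247, and dotted lines mark the limits of -0.5, 0.5 and 1. The red points reach 3.52 upward and fill the whole width of the window.

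The thresholds cut through a continuous range. Nearest the edge of the first step, Ta.16450.1.S1_a_at at -0.499, Ta.23199.1.S1_s_at at 0.498 and Ta.9322.1.S1_at at -0.493 were inside, and TaAffx.73475.1.S1_s_at at -0.502, Ta.3128.2.A1_a_at at -0.506 and Ta.13144.1.A1_at at 0.509 were outside. For the late step, Ta.23199.1.S1_s_at at 1.0008, Ta.21926.1.S1_a_at at 1.002 and Ta.1010.1.S1_at at 1.003 were inside, and Ta.7645.2.S1_a_at, TaAffx.115066.1.S1_x_at and Ta.7248.1.S1_x_at, at 0.9997, 0.9993 and 0.9988, were outside. Differences of this size are far smaller than the SD within a phase. For the P3 level, the nearest inside were Ta.16815.1.S1_s_at at 504, Ta.12584.1.S1_at at 504 and Ta.5543.1.A1_at at 506, and the nearest outside were Ta.10443.1.S1_at at 499, Ta.6274.1.S1_s_at at 491 and Ta.9102.2.S1_a_at at 491. For the gap between arrays, the ratio of the lowest P3 to the highest P2 signal was 1.02 for Ta.1622.2.S1_at, 1.05 for TaAffx.12853.1.S1_at and 1.07 for Ta.9201.2.S1_x_at. It was 0.866 for Ta.28279.1.S1_at and 0.712 for Ta.30537.1.S1_at, which failed on that condition only.

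The group was already expressed before its gain. Its mean signal ran from 112 to 13349 at P1, with a median of 522, and from 504 to 25356 at P3, with a median of 1249. Background was taken on each array as the 95th percentile of the reporter control probe sets, and lay between 89.4 and 153. All 9 arrays were above it for 218 of the 231 probe sets, and none of the 231 was below it on every array of a phase. For comparison, 228 probe sets were higher by 1 or more in each step under like conditions on overlap and level, and 78 of these were below background on all 3 P1 arrays. A further 457 were higher by 1 or more at P2 and then stayed within 0.5, and 8 of them were below background on all P1 arrays. The rules themselves set the starting levels of these groups apart, so the counts describe them and were not tested.

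The late step had nearly the same median in bright and dim probe sets. The rule cuts each class at 2-fold, and most changes lay near that limit, so similar medians partly follow from the choice. The 91 probe sets with a mean P3 signal under 1000 had a median fold of 2.28, the 107 between 1000 and 5000 had 2.39, and the 33 at 5000 or more had 2.35. The spread within phases was wider in dim probe sets, with a median pooled SD of 0.25, 0.16 and 0.11 in the same order. The largest folds lay among dim and middling probe sets, up to 8.36 in the first class and 11.5 in the second, against 4.45 in the brightest.

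The 10 probe sets with the highest signal at P3 are given first. Probe sets differ in how well they bind, so signals are compared between phases of 1 probe set and not between probe sets. TaAffx.43423.1.A1_s_at, which has no gene name in the platform annotation, read 5572, 5876 and 5747 at P1, 5943, 6562 and 6454 at P2, then 25150, 24976 and 25941 at P3. The P1 and P2 arrays were close together and the P3 arrays lay far above them, a 4.02-fold step over P2, or 2.01 on the log2 scale with a pooled SD of 0.05. A second probe set of the same sequence, TaAffx.43423.1.A1_at, read 4781, 6077 and 5398, then 3582, 4398 and 5277, then 15640, 15258 and 14393. Its late step was 1.79, and its P1 and P2 arrays overlapped.

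Ta.9357.1.S1_at read 9860, 11255 and 10714 at P1, 9174, 10383 and 10811 at P2, then 23156, 24860 and 22590 at P3. The first 2 phases overlapped and P3 lay apart, with a step of 1.22 on the log2 scale. Its companion on the same sequence, Ta.9357.1.S1_x_at, lay nearer to the edge of the window. It read 12916, 14702 and 12430 at P1 and 9838, 8918 and 10669 at P2, without overlap and -0.44 apart, before 23113, 21761 and 18433 at P3. The suffix x marks probes that can bind other sequences, so such a signal need not come from 1 gene copy.

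Ta.9060.1.S1_at drifted the other way. Its signal was 5521, 5704 and 5514 at P1, 8184, 7159 and 7398 at P2, then 18260, 17138 and 20908 at P3, so that the 3 phases were separate in ascending order, with steps of 0.44 and 1.31. Ta.1480.2.S1_a_at had overlapping arrays at P1 (10697, 11306 and 11834) and P2 (12380, 10196 and 10594), and 21887, 24144 and 21252 at P3. Its step of 1.02 was the smallest of the 10. Ta.2464.2.A1_x_at was 16295 ± 1995 at P3 (SD, n = 3) against 6634 ± 854 at P2 and 9113 ± 402 at P1, with a first step of -0.46 and a second of 1.30.

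Among these 10, Ta.24163.1.A1_at was the most uneven after the gliadin described below. It read 6246, 4541 and 7273 at P1, 6892, 5436 and 9325 at P2, then 17843, 18285 and 10490 at P3. The third P3 array was only a little above the third P2 array, and the pooled SD was 0.40. Over the group, replicate 3 of P3 gave the lowest P3 signal for 109 of the 231 probe sets, or 47.2%, compared with 34.9% of all probe sets with a mean P3 signal of 500 or more. Without that array 264 probe sets met the rule, of which 214 were among the 231.

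The largest late step was that of Ta.13378.1.A1_at, an unnamed probe set. It read 115, 126 and 151 at P1, 80.0, 120 and 235 at P2, then 1575, 1414 and 1537 at P3. The P3 arrays stood far above every earlier array and close to each other, and the step was 3.52 on the log2 scale, or 11.5-fold. Because 2 of its 3 P2 arrays were below background, that fold is uncertain. Ta.21386.1.S1_at, with an 8.36-fold step, read 49.3, 169 and 117, then 38.1, 221 and 146, then 1047, 769 and 896. Its P1 and P2 arrays were scattered around background, with a pooled SD of 0.94, while all 3 P3 arrays were clear of them.

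The next probe sets in order of step began above background. TaAffx.34778.1.S1_at read 186, 215 and 108 at P1, 145, 154 and 149 at P2, then 1094, 1243 and 946 at P3, a step of 2.87. Its P2 arrays were barely above background. Ta.22443.1.S1_s_at had 334, 480 and 749 at P1, 428, 566 and 603 at P2, then 3413, 3332 and 3679 at P3, a step of 2.72. Ta.3927.1.S1_at was the most even of the large steps, with 334, 346 and 325 at P1, 310, 240 and 372 at P2, then 1680, 1816 and 1678 at P3, a step of 2.51. In both, P1 and P2 overlapped and the P3 arrays lay close together at several times those levels.

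Ta.22766.2.S1_x_at and Ta.10305.3.S1_at had nearly the same step, 2.41 on the log2 scale, with wide scatter. The former spread over 1963, 1334 and 922 at P3 after 263, 198 and 306 at P2, and the latter ranged from 46.3 to 294 at P2, partly below background, and from 522 to 689 at P3. Another probe set of the cluster Ta.22766 was more precise. Ta.22766.1.S1_a_at read 1031, 1121 and 1044 at P1, 1546, 1561 and 1360 at P2, then 6026, 5759 and 5892 at P3, a step of 1.99 with a pooled SD of 0.08. The remaining 3 of the 10, Ta.23095.1.S1_at, Ta.13973.1.S1_x_at and Ta.2952.1.S1_at, had steps of 2.22, 2.19 and 2.16. None of the 10 has a gene name in the platform annotation.

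**Figure D3:**
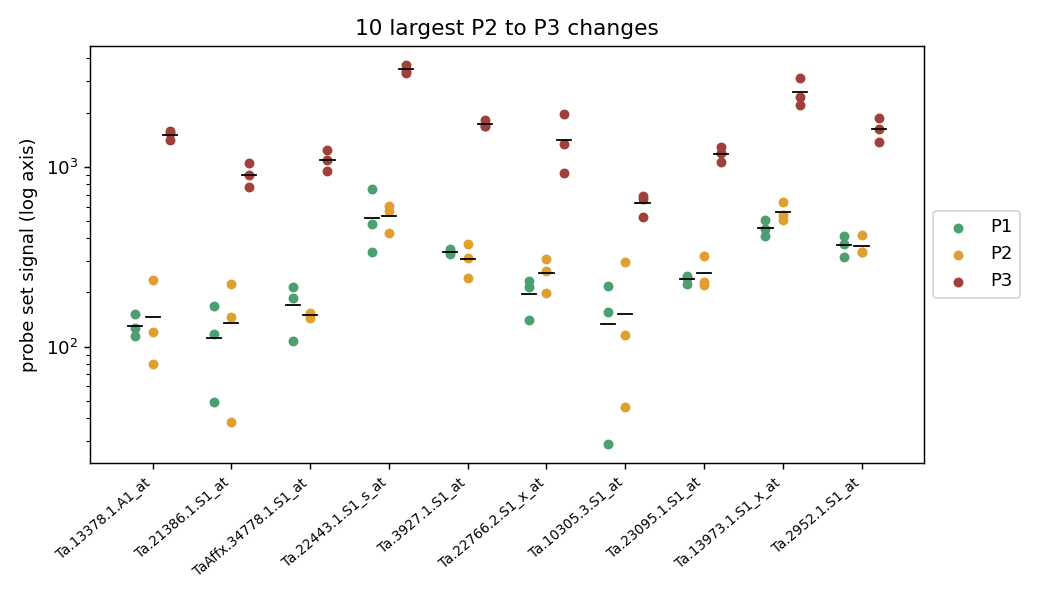
Signal on each array (points, log axis) of the 10 late-gain probe sets with the largest change from P2 to P3, with the phase mean as a bar. P1 and P2 points overlap except for Ta.13973.1.S1_x_at, where P2 lies above P1, spread most widely for Ta.21386.1.S1_at and Ta.10305.3.S1_at, and all P3 points lie above them.

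Few of the 231 can be tied to a function. The platform annotation names 11 probe sets of 9 genes, or 4.76%, against 5.28% of all probe sets with a mean P3 signal of 500 or more. All 9 genes were found in RefSeq's list of wheat genes (assembly IWGSC CS RefSeq v2.1), where 8 carry only a locus symbol. No role is given to those. The ninth, LOC543385, is a gli-2 gliadin gene with the synonym Gli-B2-11. Gliadins of this family are gluten storage proteins laid down in the starchy endosperm, and many near-identical copies are expressed together.

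The gliadin probe set Ta.24114.15.A1_x_at read 7970, 15790 and 15469 at P1, 7046, 9217 and 14324 at P2, then 23808, 26103 and 16910 at P3. The third array differed from the first 2 at both later phases, in opposite directions, and the lowest P3 array was only slightly above the highest P2 array. The late step was 1.17 with a pooled SD of 0.48, against a median pooled SD of 0.14 over the other 15 tested probe sets of its cluster. The cluster, named from the first part of the probe set ID, groups array sequences assigned to 1 transcript family. Those 15 had steps from -0.20 to 0.46 between P2 and P3, with a median of 0.03. By limma 0 of the 15 were called, and 3 had an unadjusted p under 0.05. The step of 0.46, at Ta.24114.7.S1_a_at, had a limma adjusted p = 0.0222 and stayed under 2-fold. On the third P3 array 12 of the 15 gave their highest P3 signal, while the member gave its lowest there. None of the other 15 thus reached a 2-fold step on the same arrays, though the rule picked the member for its step. The suffix x of the member marks probes that can bind other sequences, so its signal need not come from LOC543385 alone.

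**Figure D4:**
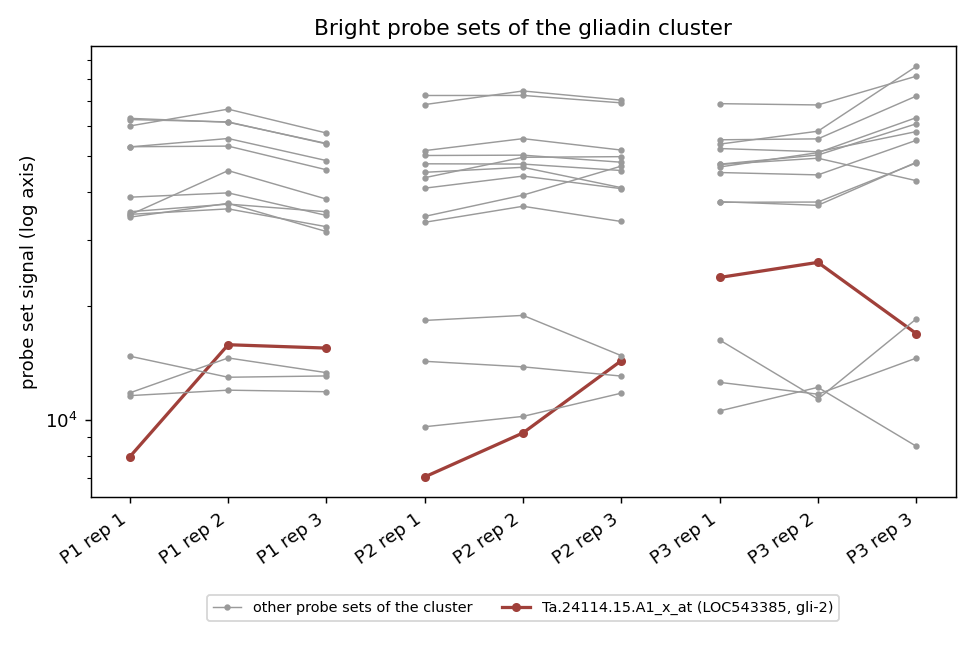
Signal on each array (log axis) of the 14 probe sets of the gliadin cluster with a mean P3 signal above 10000. Lines join the arrays of 1 phase for the same probe set. The member Ta.24114.15.A1_x_at (red) is lowest on the first array at P1 and P2 and on the third array at P3, where most of the other 13 (grey) are highest.

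Of the other named genes, LOC542955 gave the clearest values. Ta.10140.1.S1_at read 7679, 8093 and 7858 at P1, 6144, 5870 and 6082 at P2, then 15067, 14590 and 16256 at P3. All 3 phases were separate, with steps of -0.38 and 1.34 on the log2 scale and a pooled SD of 0.05. The first step had a limma adjusted p = 0.00044 and stayed under 2-fold. LOC543162 (Ta.331.1.S1_at) read 1755, 2053 and 1899, then 2050, 1598 and 2053, then 3631, 3976 and 3998. Its P1 and P2 arrays overlapped, and the step was 1.03. LOC606308 is read by a pair of member probe sets on the same sequence, Ta.21262.1.A1_at and Ta.21262.1.A1_x_at, with steps of 1.11 and 1.45. The 2 probe sets of LOC542999, Ta.14632.1.S1_at and Ta.14632.1.S1_x_at, gave 1.04 and 1.06.

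LOC543225 (Ta.140.1.S1_at) and LOC543235 (Ta.192.1.S1_at) had steps of 1.04 and 1.05 on the log2 scale. At P3 they read 1145, 1255 and 1015 for the former and 641, 626 and 701 for the latter, all above every earlier array. Ta.176.1.S1_x_at, of LOC543407, read 2306, 2302 and 2456 at P1 and 2830, 2568 and 2905 at P2. It then read 5759, 5696 and 5249 at P3, a step of 1.01. Its first step of 0.23 had a limma adjusted p = 0.0261. A second probe set of that gene, Ta.176.1.S1_s_at, read 7425, 8296 and 8288, then 10540, 11224 and 10431, then 15837, 12993 and 15753. Its 3 phases were separate in ascending order, with steps of 0.42 and 0.46 that both stayed under 2-fold (adjusted p of 0.00195 and 0.00149 by limma).

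For LOC542771 the probe sets of 1 gene also differed. The member Ta.144.1.S1_at read 196, 313 and 278 at P1, 175, 230 and 214 at P2, then 647, 588 and 335 at P3, a step of 1.30. Ta.144.1.S1_s_at, on the same sequence, had a step of 0.48 (limma adjusted p = 0.0226), below 2-fold. Ta.7979.1.A1_at, in another cluster, rose by 1.02 ± 0.23 (SE; limma adjusted p = 0.00584), with every P3 array above every P2 array, and missed the group on its P3 level alone. TaAffx.23939.1.S1_x_at was too dim to be tested.

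Gene lists assembled for grain development with earlier results of these data known hold 140 annotated probe sets, of which 117 were tested, and 1 of them was a late-gain probe set, the gliadin above. Of all probe sets 0.378% are in the late-gain group, and of all tested 4.46% were called higher and 2.77% lower at P3 than at P2. The list of late embryogenesis genes, which protect cells during drying, had 0 members. Of its 9 tested probe sets, 9 were called higher from P1 to P2, and 8 of these again from P2 to P3. Of all tested probe sets, 12.7% were called changed in either direction from P1 to P2. The embryo lectin, 1 probe set, was likewise called in both steps. Of 12 inhibitors of proteases and amylases 2, both serpins, were called higher at P3 than at P2, as were 0 of 6 thionins and puroindolines, 1 of 18 histones, 1 of 12 redox enzymes and 2 of 15 storage proteins. Of 14 tested photosynthesis probe sets 0 were called higher and 7 lower. No list of starch synthesis, starch and sugar breakdown, tubulins and profilin, hormone, lipid, methyl transfer or heat shock genes had a probe set called higher at that step. For the transcription factor list no annotated probe set was found. Since 220 of the 231 are unnamed, these counts describe the annotated fraction of the array.

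Several of the 231 read related sequences, so they are not 231 independent genes. They fall into 209 clusters, of which 20 hold more than 1 member, 42 probe sets in all, and 13 sequences are read by 2 members each. Within the 20 clusters the late steps of members differed by a median of 0.23 on the log2 scale and by at most 0.83. Ta.28204.2.S1_at and Ta.28204.2.S1_x_at are a bright pair on the same sequence. The first read 4465, 4460 and 4775, then 3791, 3909 and 3728, then 10194, 10174 and 9888, a step of 1.40, and the second had 1.35 with like scatter. In Ta.9151, 3 members had steps of 1.09, 1.64 and 1.92, the largest of them on the dimmest probe set, Ta.9151.2.A1_at, with P2 arrays from 67.5 to 276.

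The same clusters hold 220 other probe sets that the rule did not choose, and their signals are a measure it did not use, although they share arrays, and partly sequences, with the members. Of these, 193 in 82 clusters were tested. By limma 39 rose between P2 and P3, or 20.2% against 4.46% of all tested probe sets, and 0 fell, against 2.77%. Their median change was 0.61 on the log2 scale, with quartiles of 0.24 and 0.97, against a median of 0.07 over all tested probe sets. The change was above 0 for 174 of the 193, or 90.2%, compared with 55.1% of all. Probe sets on the same sequence as a member were called in 12 of 40 cases and had a median change of 0.80, and those on another sequence of the cluster in 27 of 153, with 0.54.

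Large clusters weighed on these counts. Ta.7378 supplied 37 of the 193 and the gliadin cluster 15, while no other cluster supplied more than 4. Probe sets annotated to the histone gene LOC543184 (wcH2B-8) lie in Ta.7378, though its member has no gene name. In Ta.7378 0 of the 37 were called, with a median change of 0.09 and a range from -0.65 to 0.77. Its single member, Ta.7378.6.S1_at, was chosen for a step of 1 or more, so its distance from these probe sets partly follows from the choice. That member read 220, 160 and 313 at P1, 158, 401 and 199 at P2, then 501, 572 and 659 at P3. In the clusters other than these, chosen for this count after their values were seen, 39 of 141 rose, or 27.7%, with a median of 0.80. Taken cluster by cluster, the median change of the other probe sets was above 0 in 81 of 82 clusters. No like count over all clusters of the array is given here.

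**Figure D5:**
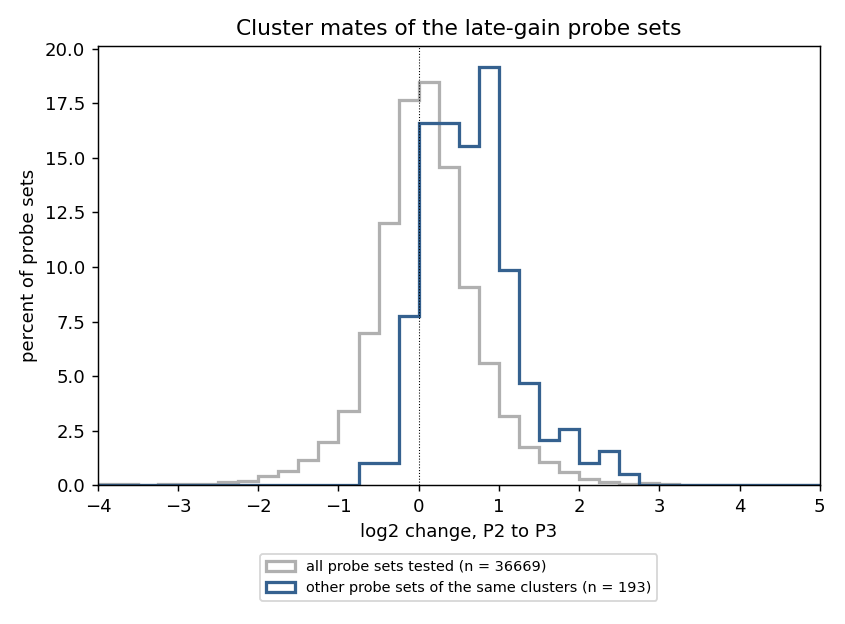
Log2 change from P2 to P3 of the 193 tested probe sets that share a cluster with a late-gain probe set but were not chosen (blue), and of all 36669 tested probe sets (grey), as percent of each set in bins of 0.25. The blue distribution lies to the right, with a median of 0.61 against 0.07.

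The probe sets that rose beside a member often had another start. Of the 39, 10 were flat from P1 to P2, 12 had gained 0.5 or more and 17 had lost 0.5 or more on the log2 scale. Ta.22965.1.S1_a_at read 7453, 7845 and 7563 at P1, 3464, 3143 and 3044 at P2, then 10535, 10097 and 11404 at P3. Its first step was -1.25 on the log2 scale, and it then rose by 1.73 ± 0.07 (SE; limma adjusted p = 7.6e-09), whereas the member on the same sequence, Ta.22965.1.S1_at, had steps of -0.49 and 1.61. The 3 phases of the former were separate, with P2 lowest.

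Ta.26928.1.S1_a_at, of the locus LOC778400, had a higher signal at P2 than at P1. It read 144, 176 and 176, then 228, 261 and 301, then 1326, 1342 and 1382, and rose by 2.37 ± 0.15 (SE; limma adjusted p = 2.89e-07) after an earlier gain of 0.67. The member of that cluster, Ta.26928.2.S1_x_at, had steps of 0.38 and 1.95. In Ta.10501, the member Ta.10501.2.S1_x_at read 3750, 3207 and 3198, then 3970, 4588 and 5225, then 13887, 14011 and 14293. Ta.10501.1.S1_x_at and Ta.10501.3.S1_a_at rose by 1.49 and 1.73 (limma adjusted p = 1.27e-07 and 9.91e-08) and were outside the group through first steps of 0.58 and 0.54, just past the window.

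Others were outside on level. Ta.22443.1.S1_at read 96.2, 75.7 and 90.3 at P1, 116, 83.7 and 69.9 at P2, then 372, 556 and 503 at P3. It rose by 2.42 ± 0.27 (SE; limma adjusted p = 4.03e-05) with a start of 0.02. At P1 and at P2, 2 of the 3 arrays of Ta.22443.1.S1_at were below background, so the size of that step is uncertain. Its mean P3 signal of 477 was under 500.

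The choice on all arrays favours probe sets whose scatter happened to run with the rule, so the rule was also applied to the arrays of 2 replicate numbers and the remaining 3 arrays were read as a description. This step was added after the data had been seen. Without replicate 1, 238 probe sets were chosen, and on the arrays left out 236 were higher at P3 than at P2 and 156 by 2-fold or more, 65.5% against 6.00% of all probe sets as bright. Without replicate 2 the share was 157 of 211, or 74.4% against 6.59%. Without replicate 3 it was 141 of 282, or 50.0% against 5.50%. The median step on the left-out arrays was 1.16, 1.26 and 1.002 on the log2 scale, and replicate 3 gave the lowest. A first step within 0.5 was seen on the left-out arrays for 75.6%, 68.7% and 74.5% of the chosen, against 62.3%, 59.8% and 63.2% of all. Both together, the whole pattern, were seen for 112, 109 and 97 of the chosen, or 47.1%, 51.7% and 34.4%, against 1.97%, 1.98% and 1.62% of all. On the arrays not used, a gain of 2-fold or more was many times as common among the chosen as among all probe sets. A flat start was somewhat more common. The left-out arrays belong to the same 3 phases, and each left-out P2 array had the high spike-in level of the other P2 arrays. A difference shared by all arrays of a phase therefore remains in these shares, and its part was not tested.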

How the data were processed

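Whole-grain RNA of 3 phases was measured on 9 arrays. The deposited values are linear intensity signals of 61290 probe sets per array; the submitters' processing notes name MAS5, without a version. Groups came from sample titles. The 175 control probe sets were left out. The late-gain rule used log2 of the deposited signals (pseudocount 0). The model was fitted in limma 3.58.1 under R 4.3.3 (phase as factor, all 9 arrays, intensity trend, 6 residual degrees of freedom) to the 36669 probe sets left after dropping the dimmest 40% by mean log2 signal, with Benjamini-Hochberg adjustment over all of them. The words rose and fell are kept for an adjusted p under 0.05 and at least a 2-fold change. P-values set each difference between phases against the spread between biological replicates, which limma adjusts toward that of other probe sets of like signal. Precision is limited by 3 arrays per phase. The script was tested on simulated data.

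Members and gene lists were chosen with earlier results of these data known. Named are the annotated members, the 10 brightest at P3, the 10 with the largest late step and those next to each threshold; other probe sets named were chosen after their values were seen. The platform annotation names 1273 probe sets with 1 gene symbol; RefSeq supplied synonyms only. A planned search of promoters was not run and no sequence is shown, because none was used here. Alternatives in scaling, background, pseudocount, filter, variance model, thresholds, replicate block and leave-one-out were computed.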

Additional observations from a re-analysis of the deposited data

How the results depend on the processing

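The number of probe sets meeting the rule followed its thresholds, with 144 at a first-step window of 0.3, 520 at a minimum rise of 0.75, 54 at a minimum rise of 1.5, 371 at a minimum P3 signal of 250, 140 at 1000 and 862 with no minimum, and the other thresholds tried, a window of 0.75 and overlap allowed, gave 311 and 233. Scaling to the poly-A controls gave 1532, and under it 18543 of all tested probe sets, 168 cluster mates and 87 members (P1 to P2, 0 otherwise) were called, while the median steps of the members became -0.87 and 2.22 as those of all tested probe sets became -0.83 and 1.07. Of the scalings, quantile, median and hybridization-control scaling gave 202, 185 and 206 probe sets, 197, 165 and 181 of them among the 231. Raising signals to the background of each array lowered the count of all probe sets called higher at P3 than at P2 from 1634 to 1037. The median late step over all tested probe sets went from 0.07 to -0.13. Mean background was 135 at P2 and 109 at P3, and the part of that difference in the lower count was not tested. With 1 array left out in turn, 215 to 264 probe sets met the rule, 33 to 40 cluster mates and 200 to 231 members were called higher at P3 than at P2. The sample titles do not say whether arrays of the same replicate number share a plot, and correlations cannot settle it. Same-number deviations correlated at -0.05 to 0.03, and an array correlated best with its own number in 7 of 18 comparisons. A fit with a replicate block called 230 members, 37 cluster mates and 1593 of all probe sets higher at P3 than at P2. The 11 named members kept a positive late step under all alternatives run, from 0.90 to 1.59 on the log2 scale except under poly-A scaling, which reached 2.45. Signal near background limits the dimmest steps.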
